A study of Mus musculus with 2 samples.

Results

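The nuclei described here were picked from mouse cerebral cortex as capillary and venous endothelial nuclei, the nuclei of the cells that line the smallest vessels and the vessels that drain them. A nucleus was a member if mitochondrial genes held at most 5% of its RNA molecules and at least 3 of 9 endothelial markers (Flt1, Pecam1, Adgrl4, Tek, Egfl7, Ptprb, Emcn, Erg, Ly6c1) were detected. It could hold at most 1 molecule over 4 arterial genes (Bmx, Mecom, Eln, Gja5) and at most 1 of 6 genes of other lineages (Slc17a7, Gad2, Mog, Csf1r, Abcc9, Atp13a5). This rule found 119 of 17501 nuclei, 39 of 8914 in library 1 (0.44%, exact 95% binomial interval 0.31 to 0.60) and 80 of 8587 in library 2 (0.93%, 0.74 to 1.16). Molecules were counted by unique molecular identifiers (UMIs).

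Endothelial cells of brain capillaries form the blood-brain barrier: tight junctions seal the gaps between them, efflux pumps return drugs and organic anions to the blood, and carriers bring in glucose, amino acids and thyroid hormone. Expression changes along the vessel tree from arteries through capillaries to veins. Capillaries carry most of the transporters, whereas veins are known for adhesion molecules and von Willebrand factor. Wnt signalling through beta-catenin maintains barrier genes in these cells.

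The samples were frozen cerebral cortices of wild-type C57BL/6 mice on a normal diet without treatment, pooled from 3 mice per age. One sample came from mice aged 18 months and the other from mice aged 2 months, while the series text gives ranges of 18 to 22 and 2 to 3 months. Nuclei were run on the 10x Genomics Chromium droplet platform. Nuclear RNA leaves out most cytoplasmic transcripts, and each pool is 1 sample. The deposited count matrix holds both samples, told apart by 2 barcode suffixes, called library 1 and library 2 here, and the labels do not say which suffix belongs to which age. No comparison of ages was therefore possible. Values are given per library, with no test between libraries and no replicate error. Intervals are exact 95% Poisson intervals for levels and exact Clopper-Pearson intervals for shares, and both cover counting error only.

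The matrix held 118655443 UMIs over 30905 genes, 58108297 in library 1 and 60547146 in library 2. Of the barcode sequences, 19 occurred with both suffixes, and 0 of these were members. Members held a median of 2645 UMIs in library 1 (1068 to 32754) and 3344 in library 2 (1265 to 34631), against medians of 6132 and 6573 in all other nuclei within the mitochondrial limit. Levels are in CPM, the UMIs of a gene summed over a group of nuclei, divided by all UMIs of that group and scaled to 1000000. Because CPM are not corrected for gene length, a level is compared between groups of nuclei and never between genes. Doublets were not screened with a caller.

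The members differed widely in how much endothelial RNA they held. A nucleus was called marker-rich where the 9 markers made up at least 0.2% of its UMIs, and marker-poor below that. Of the members, 26 of 39 in library 1 and 36 of 80 in library 2 were marker-rich. The marker-rich nuclei held medians of 2122 and 1845.5 UMIs and of 5 and 4 markers, and the 9 markers made up a median of 0.67% (0.28 to 1.36) and 0.75% (0.21 to 1.41) of their UMIs. The 13 and 44 marker-poor nuclei were deeper, with medians of 8518 and 10378 UMIs and of 3 markers, which made up a median of 0.089% (0.031 to 0.16) and 0.036% (0.012 to 0.20) of UMIs. Because they were deep, the marker-poor nuclei supplied 65.2% and 85.4% of all UMIs of the members.

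The marker-poor members carried less of the rest of the endothelial gene set, and in library 2 about as much as the bulk of the nuclei. Over 25 further pan-endothelial genes outside the rule, among them Cldn5, Ebf1, Cyyr1 and Epas1, the summed level was 6003 CPM in library 1 (5428 to 6622) and 5641 CPM in library 2 (5133 to 6185) in marker-rich members. In marker-poor members it was 924 CPM in library 1 (763 to 1109) and 258 CPM in library 2 (214 to 308), beside 219.7 and 231 CPM in nuclei with at most 1 of the 9 markers. The sum of 12 neuron markers, of which Slc17a7 and Gad2 are in the rule, went the other way, at 19799 and 22041 CPM in marker-rich members, 35053 and 42486 CPM in marker-poor members and 37008 and 38953 CPM in nuclei with at most 1 marker. In library 2 the marker-poor members were thus close to the bulk of the nuclei on both lists, whereas in library 1 their pan-endothelial sum lay between that of the marker-rich members and the bulk. Mitochondrial genes took a median of 2.29% and 2.47% of UMIs in marker-rich members and 0.82% and 0.70% in marker-poor members. The part that endothelial RNA from outside the nucleus, or 2 nuclei in 1 droplet, had in the marker-poor members was not tested. Values below are therefore given for the 62 marker-rich members unless all 119 are named. The 0.2% limit uses the rule's own genes, so the level of the 9 markers is no evidence about these nuclei.

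**Figure D1:**
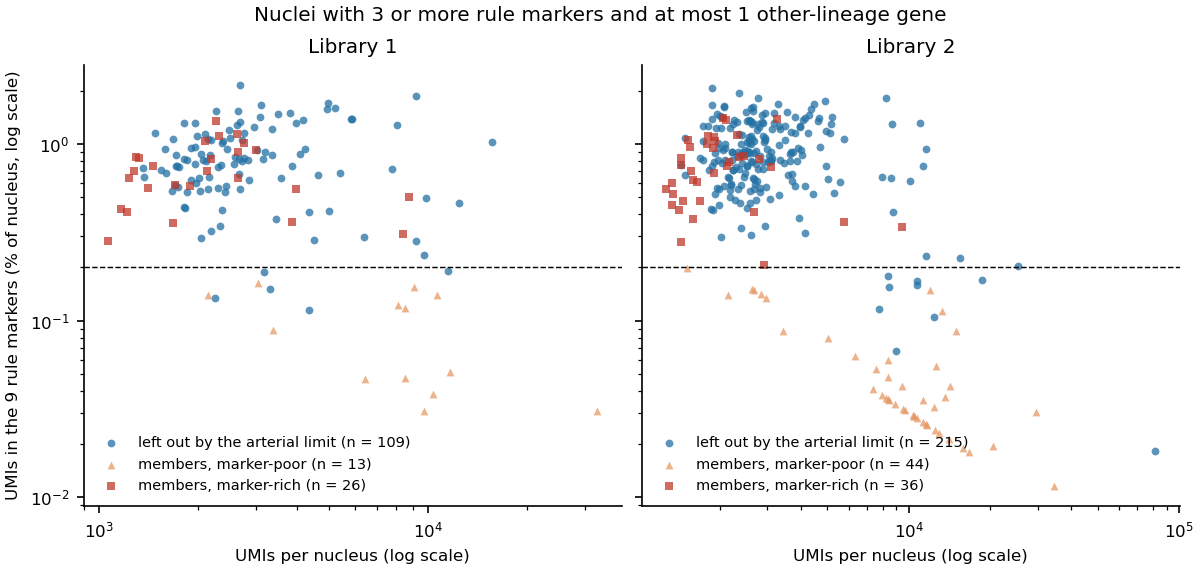
Each point is 1 nucleus with at least 3 of the 9 markers and at most 1 other-lineage gene, by its UMIs (x, log scale) and the percent of its UMIs in the 9 markers (y, log scale), per library. Marker-rich members (squares) lie above the dashed 0.2% line among the nuclei left out by the arterial limit (circles), and marker-poor members (triangles) lie below it, most of them at higher UMI counts.

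Near the limits of the rule, the nuclei looked as follows. Of the members with exactly 3 markers, 6 of 13 in library 1 and 10 of 46 in library 2 were marker-rich, whereas of those with 4 or more it was 20 of 26 and 26 of 34. Just outside, 77 and 348 nuclei held exactly 2 markers and met the other limits, and 3 and 7 of them reached the 0.2% share. Nuclei kept out by exactly 2 arterial UMIs numbered 10 and 13, and 9 and 12 of them were marker-rich. A mitochondrial share over 5% kept out 0 and 5 nuclei. The marker shares on either side of the 0.2% limit were 0.16% and 0.28% in library 1, where there was a gap, and 0.20% and 0.21% in library 2, where there was none.

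The arterial limit removed most endothelial nuclei, and 1 gene accounted for most of the removals. Among nuclei that met the other limits and were marker-rich, 104 of 130 in library 1 (80.0%) and 206 of 242 in library 2 (85.1%) held 2 or more UMIs over the 4 arterial genes. Mecom, a zinc finger transcription factor of the PR domain family, supplied 868 of 989 of those UMIs in library 1 and 2148 of 3257 in library 2. It was detected in 112 of 130 (86.2%, 79.0 to 91.6) and 228 of 242 (94.2%, 90.5 to 96.8) of all marker-rich endothelial nuclei. Bmx, an endothelial tyrosine kinase, was detected in 11 and 69 of them, Eln, the gene of elastin, in 27 and 77, and Gja5, the gene of connexin 40, in 1 and 11. Of the nuclei left out, 73 of 104 and 119 of 206 held no UMI of Bmx, Eln or Gja5 and were left out by Mecom alone. With Mecom dropped from the limit, 114 and 175 marker-rich nuclei would have been members, in place of 26 and 36.

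**Figure D2:**
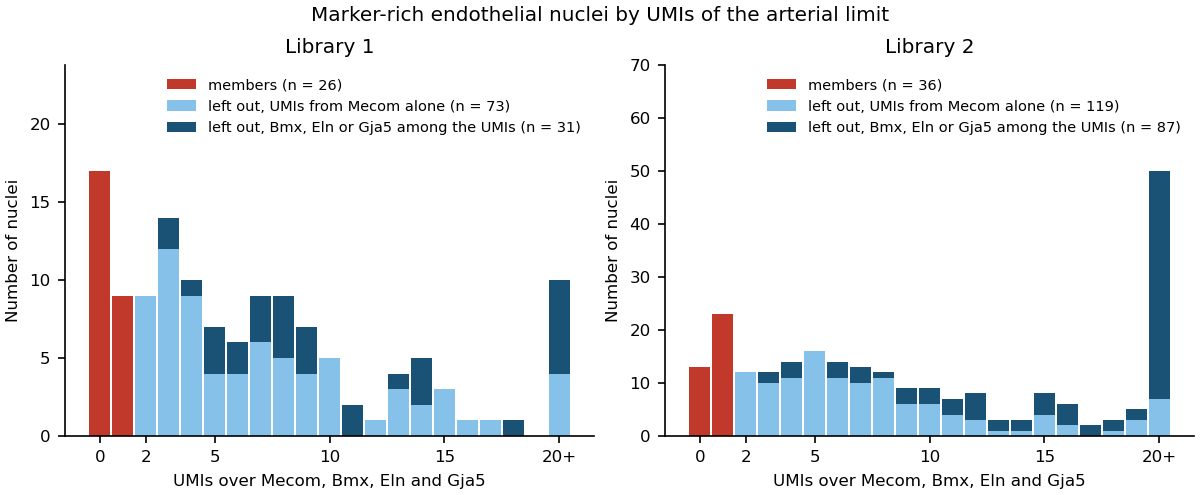
Number of marker-rich endothelial nuclei (y) by the UMIs they hold over Mecom, Bmx, Eln and Gja5 (x, with 20 or more in the last bar), per library. Members hold 0 or 1, and the light bars show that 73 and 119 nuclei beyond the limit held Mecom and none of the other 3 genes.

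Mecom lies on the minus strand of chromosome 3, from 29951296 to 30548008 in mm10. Its level was 120.4 CPM in library 1 (8 UMIs, 51.96 to 237) and 274 CPM in library 2 (22 UMIs, 172 to 415) in marker-rich members, a range the rule itself sets. In the nuclei left out it was 2489 and 3063 CPM, and in those without a UMI of Bmx, Eln or Gja5 2665 and 2679 CPM. It stood at 6.95 and 5.55 CPM in astrocyte nuclei, and 0 UMIs were found in 251167 and 360180 UMIs of pericyte and smooth muscle nuclei, which allows up to 14.7 and 10.2 CPM (upper bound of the interval). Mecom thus marked endothelial nuclei with and without arterial genes. Members therefore stand for endothelial nuclei with few Mecom molecules, and the limit, being a count of UMIs, was also easier to meet for shallow nuclei: medians were 2122 and 1845.5 UMIs in marker-rich members and 2496.5 and 2668.5 in marker-rich nuclei left out.

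The sequences around gene starts are shown for Mecom, since its count decided membership, for Nostrin, which had the largest ratio to other nuclei among genes outside the lists, and for Slco1a4, an organic anion carrier whose level differed between the libraries. Each is a window of 300 bases from RefSeq on GRCm38.p6, 250 before and 50 after the start, written from 5′ to 3′ along the gene's strand. RefSeq gives 2 such windows for Mecom. Capitals mark the core bound by ETS factors, the family of Erg, Fli1 and Ets1, read as CGGAAG or AGGAAG or their reverse complements CTTCCG and CTTCCT.
Mecom, chr3:30509710-30510009, minus strand: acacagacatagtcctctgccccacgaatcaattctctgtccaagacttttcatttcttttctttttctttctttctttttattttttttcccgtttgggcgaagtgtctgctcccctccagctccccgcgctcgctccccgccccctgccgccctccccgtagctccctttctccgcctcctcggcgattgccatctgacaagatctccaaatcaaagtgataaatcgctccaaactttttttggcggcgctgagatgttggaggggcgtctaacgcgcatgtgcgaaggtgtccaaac
Mecom, chr3:30013155-30013454, minus strand: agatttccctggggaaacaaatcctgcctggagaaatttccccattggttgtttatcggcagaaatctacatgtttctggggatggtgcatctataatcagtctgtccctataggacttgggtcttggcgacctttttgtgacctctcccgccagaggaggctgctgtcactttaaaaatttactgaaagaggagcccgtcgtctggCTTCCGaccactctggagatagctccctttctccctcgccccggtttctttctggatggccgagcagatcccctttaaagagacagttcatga
Nostrin, chr2:69135550-69135849, plus strand: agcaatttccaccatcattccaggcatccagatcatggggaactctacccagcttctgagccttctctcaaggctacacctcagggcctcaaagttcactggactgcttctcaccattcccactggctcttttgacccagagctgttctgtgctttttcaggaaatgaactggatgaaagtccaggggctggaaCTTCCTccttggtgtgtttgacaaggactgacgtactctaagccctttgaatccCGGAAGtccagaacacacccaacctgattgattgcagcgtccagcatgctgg
Slco1a4, chr6:141856171-141856470, minus strand: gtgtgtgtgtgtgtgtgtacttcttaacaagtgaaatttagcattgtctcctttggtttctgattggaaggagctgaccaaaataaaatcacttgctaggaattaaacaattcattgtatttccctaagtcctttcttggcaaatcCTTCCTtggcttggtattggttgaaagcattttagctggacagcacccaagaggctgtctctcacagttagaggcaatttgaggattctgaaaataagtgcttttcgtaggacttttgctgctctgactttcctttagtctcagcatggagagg

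An ETS core was in 15265 of 32851 windows of all genes (46.5%). It was in 13 of 28 windows (46.4%) of 19 of the 25 leading genes outside the lists, in 7 of 15 windows (46.7%) of 13 of the 25 pan-endothelial genes, and in 7 of 12 windows (58.3%) of 7 of the 9 rule markers. The remaining genes were not matched in the table. The match is a count of letters and not a bound site, and the first Mecom window, which held no core, says nothing about the binding of these factors.

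Of the rule markers, Flt1, Adgrl4 and Ptprb were detected in most marker-rich members, and the levels of all 9 describe the choice of nuclei. Flt1, the VEGF receptor 1, stood at 3054 CPM in library 1 (203 UMIs, 2648 to 3504) and 3611 CPM in library 2 (290 UMIs, 3207 to 4052) and was detected in 26 of 26 and 33 of 36 nuclei. Adgrl4, an adhesion receptor of endothelium, was detected in 22 of 26 and 27 of 36 nuclei, and Ptprb, a phosphatase of the angiopoietin receptor, in 22 of 26 and 26 of 36 nuclei. Tek, the angiopoietin receptor itself, stood at 406 and 374 CPM, and Pecam1, a junctional adhesion molecule, at 421 and 324 CPM. Erg, an ETS transcription factor, stood at 241 and 174 CPM, and Emcn, a sialomucin of the cell surface, at 301 and 311 CPM. Ly6c1 stood at 421 and 187 CPM, a level that is uncertain because near-identical Ly6 genes can share its reads. Egfl7 was at 0 UMIs in library 1 and 1 UMI in library 2, so membership rested on the other 8 markers.

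Genes outside the rule were compared with all other nuclei within the mitochondrial limit, which include the endothelial nuclei left out and so lower the ratios. A gene was compared where the mean of both levels would give at least 10 UMIs in the members, and counted as higher or lower at 4-fold or more. Since the rule fixed this contrast, the counts are a description without a test. In addition, a gene scarce in other nuclei could pass the filter only by being high in the members. Counts of genes higher among those compared, here and per list below, are therefore favoured by the filter. Over all 119 members, 76 of 3547 genes (2.14%) were higher in library 1 and 14 of 6368 (0.22%) in library 2, while 9 (0.254%) and 15 (0.236%) were lower. Over the 62 marker-rich members, 83 of 1293 genes (6.42%) were higher in library 1 and 86 of 1487 (5.78%) in library 2, and 57 of the 1176 compared in both (4.85%) were higher in both. Genes 4-fold lower numbered 22 (1.7%) and 14 (0.941%). Of the genes on the endothelial lists, 24 of 44 compared (54.5%) and 29 of 52 (55.8%) were higher and 0 were lower.

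Pan-endothelial genes stood far above the rest of the cortex. Of the 25 on this list, 8 could be compared in each library, and 8 and 7 were 4-fold higher, counts that the filter favours. The sum of all 25, on which the filter does not act, was 18.8 and 13.8 times the level in other nuclei. Cldn5, the claudin that dominates brain tight junctions, stood at 391 CPM in library 1 (26 UMIs, 256 to 573) and 436 CPM in library 2 (35 UMIs, 304 to 606), 42.2-fold and 17.4-fold the level in other nuclei. Cyyr1 stood at 737 and 797 CPM and was detected in 17 of 26 and 25 of 36 nuclei. Epas1, the oxygen-sensitive factor HIF-2 alpha, stood at 466 and 398 CPM, and Fli1, an ETS factor, at 406 and 423 CPM. Ebf1, a factor also made by pericytes, stood at 1128 and 1133 CPM in members and 1489 and 1921 CPM in pericyte and smooth muscle nuclei. Shank3, a scaffold that neurons also make, was at 135 and 199 CPM against 112 and 85.7 CPM in other nuclei. Cdh5, the gene of VE-cadherin of adherens junctions, lies on chromosome 8 from 104101625 to 104144511 and stood at 181 CPM in library 1 (12 UMIs, 93.3 to 315) and 74.7 CPM in library 2 (6 UMIs, 27.4 to 163). The Cdh5 level of library 2 rested on 6 UMIs in 5 of 36 nuclei, and its interval overlaps that of library 1.

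Junction genes stood above other nuclei as a list, with Cldn5 far higher than the scaffolds in its ratio. The summed list was 2.84 in library 1 (2.47 to 3.24) and 3.19 in library 2 (2.84 to 3.57) times the level in other nuclei. Of 20 genes of tight and adherens junctions, 1 of 4 compared in library 1 and 2 of 6 in library 2 were 4-fold higher. Tjp1, the scaffold ZO-1, stood at 933 CPM in library 1 (62 UMIs, 715 to 1196) and 1519 CPM in library 2 (122 UMIs, 1262 to 1814), 1.75-fold and 2.74-fold the level in other nuclei. Afdn, which links nectins to actin, stood at 331 and 174 CPM against 175 and 171 CPM elsewhere. Pard3, a polarity protein, stood at 301 and 324 CPM against 161 and 149 CPM, and Ctnnb1, beta-catenin, at 196 and 212 CPM against 59.7 and 60.7 CPM. Tjp1, Afdn and Pard3 did not reach 4-fold in either library.

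Efflux pumps and organic ion carriers stood far above the other nuclei. Of 13 such genes, the 4 with enough counts in library 1 and the 5 in library 2 were each 4-fold higher, counts that the filter favours. The sum of all 13 was 16.5 and 18.3 times the level in other nuclei. Slco1a4, which carries organic anions, stood at 873 CPM in library 1 (58 UMIs, 663 to 1128) and 2055 CPM in library 2 (165 UMIs, 1753 to 2393) and was detected in 20 of 26 and 30 of 36 nuclei. Slco1c1, the thyroxine carrier, stood at 572 CPM in library 1 (38 UMIs, 405 to 785) and 1183 CPM in library 2 (95 UMIs, 957 to 1446), and astrocytes, which also make it, held 159 and 153 CPM. Abcb1a, the pump P-glycoprotein, stood at 542 and 709.8 CPM, 38.9-fold and 24.04-fold the other nuclei. Abcg2, the breast cancer resistance protein, stood at 211 and 249 CPM, and Abcc4, which exports cyclic nucleotides and drugs, at 737 CPM in library 1 (49 UMIs, 545 to 975) and 274 CPM in library 2 (22 UMIs, 172 to 415). Slco1a4 and Slco1c1 were lower in library 1 and Abcc4 was lower in library 2, with intervals apart in each case.

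Among nutrient carriers, 3 of 4 compared in library 1 and 5 of 7 in library 2 were 4-fold higher. Slc2a1, the glucose transporter GLUT1, stood at 827 CPM in library 1 (55 UMIs, 623 to 1077) and 722 CPM in library 2 (58 UMIs, 548 to 934), 27.9-fold and 19.8-fold the other nuclei. Slc6a6, the taurine carrier, stood at 1189 and 709.8 CPM, and Slc39a10, a zinc importer, at 542 and 560.4 CPM. Slc9a9, a sodium-proton exchanger of endosomes, stood at 105 and 125 CPM against 270.4 and 324 CPM in other nuclei, less than 4-fold apart. Of the receptors, caveolae and transcytosis genes only Igf1r, the receptor of insulin-like growth factor 1, was 4-fold higher among 4 compared in each library, at 2332 and 2989 CPM, 6.35-fold and 8.94-fold. Insr, the insulin receptor, stood at 226 and 423 CPM, Picalm, a clathrin adaptor, at 241 and 299 CPM, and Lrp1, a scavenger receptor, at 60.2 and 149 CPM, the last against 126 and 85.6 CPM in other nuclei.

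Signalling genes were detected at fewer UMIs. Lef1, a transcription factor of the Wnt pathway, stood at 843 CPM in library 1 (56 UMIs, 636 to 1094) and 747 CPM in library 2 (60 UMIs, 570.1 to 962), 56.2-fold and 29.6-fold the other nuclei, and was the 1 gene 4-fold higher among 1 and 3 compared of the Wnt list. Apcdd1, a Wnt target and inhibitor, stood at 60.2 and 199 CPM, and Reck, part of a Wnt7 receptor complex, at 120.4 and 24.9 CPM from 8 and 2 UMIs. In the VEGF and angiopoietin list Sema3c, a secreted semaphorin, stood at 752 and 722 CPM, and Ramp2, a co-receptor of adrenomedullin, at 256 and 112 CPM, whereas Nrp1, a VEGF co-receptor that neurons share, was at 256 and 249 CPM against 171 and 169.6 CPM. In the TGF-beta and BMP list Eng, endoglin, stood at 316 and 274 CPM, and Bmpr2, a BMP receptor, at 421 and 448 CPM. Id1, a target of BMP signalling, stood at 391 CPM in library 1 (26 UMIs, 256 to 573) and 62.3 CPM in library 2 (5 UMIs, 20.2 to 145), the higher level in library 1 with intervals apart. Notch genes were too sparse to compare: Notch1 held 9 and 2 UMIs, Jag2 5 and 13, and Rbpj 1 and 3.

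Of the basement membrane and integrin genes 1 of 2 compared in library 1 and 3 of 4 in library 2 were 4-fold higher. Fn1, fibronectin, stood at 271 and 336 CPM, Itga6, an integrin that binds laminin, at 346 and 212 CPM, and Col4a1, a collagen of the basement membrane, at 241 and 162 CPM beside 127 and 197 CPM in pericyte and smooth muscle nuclei. Of the 15 nitric oxide, prostanoid and tone genes 0 of 1 compared was 4-fold higher in either library. Nos3, the endothelial nitric oxide synthase, held 6 and 9 UMIs (90.3 and 112 CPM) against 2.87 and 5.36 CPM in other nuclei. Klf2, a factor induced by blood flow, stood at 587 CPM in library 1 (39 UMIs, 417 to 802) and 299 CPM in library 2 (24 UMIs, 191 to 445). Among 32 endothelial transcription factors 5 of 10 compared and 6 of 11 compared were 4-fold higher. Tcf4 and Mef2c, which neurons also make, were near the general level, at 1941 and 1594 CPM and at 722 and 946 CPM.

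Connexin 43 is the protein named in the title of the study, and Gja1, its gene, lies on chromosome 10 from 56377330 to 56402513. Marker-rich members held 15.05 CPM in library 1 (1 UMI, 0.38 to 83.8) and 24.9 CPM in library 2 (2 UMIs, 3.02 to 89.96), while astrocytes, which make it, held 137 and 121 CPM and endothelial nuclei left out 46.3 and 41.8 CPM. The share of marker-rich members with a Gja1 UMI was 3.85% (1 of 26) and 5.56% (2 of 36). It was 6.58% and 8% in microglia, which should lack the gene, at median depths of 1850 and 2078 UMIs beside 2122 and 1845.5 in the members. Gja1 in these nuclei was not detectable above that background at this depth. Gjc1, the gene of connexin 45, stood at 211 CPM in library 1 (14 UMIs, 115 to 353) and 112 CPM in library 2 (9 UMIs, 51.2 to 213) and was detected in 11 of 26 and 8 of 36 nuclei. Pericyte and smooth muscle nuclei held 207 and 161 CPM of Gjc1, endothelial nuclei left out 130.2 and 74.9 CPM, and other nuclei 3.59 and 5.66 CPM. Gja5 held 0 UMIs in the members of either library, as the rule nearly requires. Panx1 held 0 and 1 UMI and Panx2 1 and 2. Of 12 connexin and pannexin genes 0 reached the count needed for the comparison.

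The title also names NAD+, and 26 genes of NAD metabolism were listed. Summed, they stood at 692 CPM in library 1 (507 to 923) and 535 CPM in library 2 (388 to 721) in marker-rich members and at 621 and 505 CPM in nuclei with at most 1 marker, levels whose intervals overlap. Nmnat2, a neuronal NAD synthase, was the 1 gene compared and was not 4-fold different, at 241 and 162 CPM against 280.2 and 248 CPM. Nampt, which catalyses the slowest step of NAD salvage, held 3 and 7 UMIs (45.1 and 87.2 CPM) against 24.1 and 22.5 CPM in other nuclei. Nadk, the NAD kinase, held 2 and 6 UMIs, and the deacylase gene Sirt2 4 and 3.

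**Figure D3:**
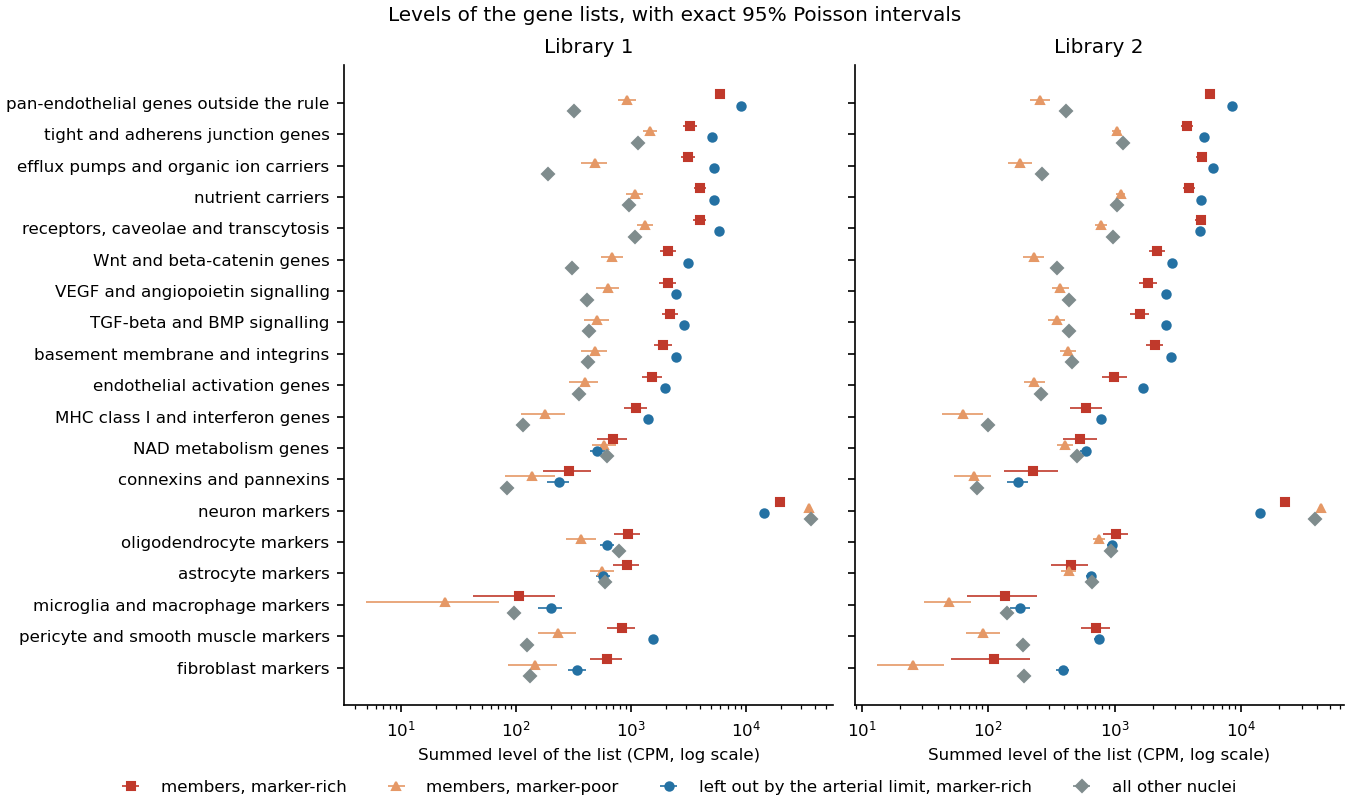
Summed level of each gene list (x, CPM on a log scale) per library in marker-rich members, marker-poor members, marker-rich nuclei left out by the arterial limit and all other nuclei; bars are exact 95% Poisson intervals. In marker-rich members the pan-endothelial list stands at 6003 and 5641 CPM, and the marker-poor members lie nearer the other nuclei than the marker-rich members on this list and on the neuron list.

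The leading genes outside the rule and the lists included genes of nitric oxide synthase traffic, lipid handling and vessel stability. Ranked by the smaller of both libraries' ratios to other nuclei, Nostrin came first, with 49.2-fold and 41.9-fold. It encodes a protein that regulates the traffic of nitric oxide synthase and stood at 301 CPM in library 1 (20 UMIs, 184 to 465) and 461 CPM in library 2 (37 UMIs, 324 to 635). Ccdc141 stood at 1008 and 1071 CPM (34.7-fold and 29.2-fold) and was detected in 18 of 26 and 25 of 36 nuclei. Prom1, prominin 1, stood at 331 and 486 CPM, and Adgrf5, an adhesion receptor, at 316 and 398 CPM. Atp10a, a lipid flippase, stood at 963 and 859 CPM, and Pltp, the phospholipid transfer protein, at 421 and 336 CPM. Pdgfd, a growth factor for mural cells, stood at 557 and 685 CPM, Heg1, a receptor needed for vessel stability, at 752 and 436 CPM, and Tbc1d4, a regulator of glucose transporter traffic, at 782 and 386 CPM. In marker-poor members Nostrin was at 88.4 and 4.26 CPM, Prom1 at 24.1 and 8.51 CPM and Heg1 at 32.1 and 19.2 CPM.

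Capillary genes were well represented in the marker-rich members. Of 10 capillary genes, 2 of 2 compared and 4 of 4 compared were 4-fold higher than in other nuclei, counts that the filter favours. The sum of all 10 was 2302 CPM in library 1 (1952 to 2697) and 3126 CPM in library 2 (2751 to 3537). This sum was 8.17 and 11.03 times the level in other nuclei. In the endothelial nuclei left out it was 2717 and 2892 CPM, a ratio of 0.85 in library 1 (0.71 to 1.01) and 1.08 in library 2 (0.94 to 1.23). Spock2, a matrix proteoglycan, stood at 752 and 797 CPM and was detected in 22 of 26 and 25 of 36 nuclei. Cxcl12, a chemokine, stood at 406 and 448 CPM, Slc7a5, the large neutral amino acid carrier LAT1, at 226 and 274 CPM, and Tfrc, the transferrin receptor, at 150.5 and 212 CPM. Left-out nuclei held 179 and 183 CPM of Slc7a5 and 133 and 174 CPM of Tfrc, within the intervals of the members.

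Venous genes were present, but lower than in the endothelial nuclei the rule left out. The 15 venous genes summed to 722 CPM in library 1 (532 to 957) and 461 CPM in library 2 (324 to 635) in marker-rich members, 1702 and 1655 CPM in nuclei left out and 80.4 and 75.03 CPM in nuclei with at most 1 marker. The ratio of members to nuclei left out was 0.42 in library 1 (0.31 to 0.57) and 0.28 in library 2 (0.19 to 0.39), while that of pan-endothelial genes was 0.66 in library 1 (0.60 to 0.74) and 0.67 in library 2 (0.61 to 0.74), so the venous ratio lay below the general one with intervals apart in both libraries. Vwf, von Willebrand factor, stood at 150.5 CPM in library 1 (10 UMIs, 72.1 to 277) and 137 CPM in library 2 (11 UMIs, 68.4 to 245) in members and at 309.7 and 373 CPM in nuclei left out. Il1r1, the interleukin 1 receptor, stood at 286 CPM in library 1 (19 UMIs, 172 to 446) and 74.7 CPM in library 2 (6 UMIs, 27.4 to 163) against 532 and 425 CPM, but its UMIs came from 3 of 26 and 4 of 36 nuclei. One nucleus of library 1 that also held fibroblast markers carried 8 of the 19. Nr2f2, the venous identity factor COUP-TFII, held 6 UMIs in library 1 (90.3 CPM, 33.1 to 196) and 2 in library 2, against 18.9 and 14.6 CPM in other nuclei. Ackr1, the venular chemokine receptor, held 1 and 3 UMIs and was not detectable above the 26.9 and 18.05 CPM of other nuclei. Without 2 nuclei of library 1 that held 4 or more fibroblast markers, described further on, the venous sum there was 529 CPM (359 to 750.5) and the capillary sum 2456 CPM.

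Nuclei were then counted by a set of 5 venous genes (Slc38a5, Vwf, Nr2f2, Vcam1 and Il1r1) and a set of 6 capillary genes (Mfsd2a, Tfrc, Slc7a5, Rgcc, Spock2 and Slc16a1). The venous set was settled after values had been seen, and microglia served as nuclei that should lack its genes. For the capillary set microglia are given beside the members and were not taken to lack the genes. With every nucleus thinned to 1000 UMIs in 1 random draw, a UMI of the venous set was found in 11.5% (2.45 to 30.2) and 33.3% (18.6 to 50.97) of marker-rich members, 33.7% (24.7 to 43.6) and 40.8% (34.00 to 47.8) of nuclei left out and 4.39% (2.12 to 7.92) and 3.60% (1.66 to 6.72) of microglia. Without thinning the shares were 42.3% and 38.9%, 58.7% and 65.05% and 7.02% and 10.8% at median depths of 2122 and 1845.5, 2496.5 and 2668.5, and 1850 and 2078 UMIs. The thinned share of members thus lay above microglia in library 2, whereas the intervals overlap in library 1. For the capillary set the thinned shares were 76.9% (56.4 to 91.03) and 58.3% (40.8 to 74.5) in members, 61.5% (51.5 to 70.9) and 54.9% (47.8 to 61.8) in nuclei left out and 15.4% (10.9 to 20.7) and 23.6% (18.5 to 29.4) in microglia.

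Arterial genes that the rule did not use were lower in members, at a ratio to nuclei left out of 0.49 in library 1 (0.40 to 0.60) and 0.34 in library 2 (0.29 to 0.40). The rule split these nuclei by arterial genes, so this contrast describes the choice of nuclei and is no separate finding. Against the left-out nuclei without a UMI of Bmx, Eln or Gja5 the ratio was 0.88 in library 1 (0.71 to 1.09) and 0.90 in library 2 (0.76 to 1.08). Arl15, a small GTPase and the largest contributor to this list, stood at 978 and 984 CPM in members, 1936 and 3469 CPM in nuclei left out and 1087 and 1345 CPM in those without these 3 genes. Against the same nuclei the capillary ratio was 0.71 in library 1 (0.59 to 0.84) and 0.66 in library 2 (0.57 to 0.75) and the venous ratio 0.43 in library 1 (0.31 to 0.58) and 0.30 in library 2 (0.21 to 0.42). Once nuclei with arterial genes were set aside, the capillary ratio was thus close to the pan-endothelial ratio, 0.66 in library 1 (0.59 to 0.74) and 0.63 in library 2 (0.57 to 0.70).

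**Figure D4:**
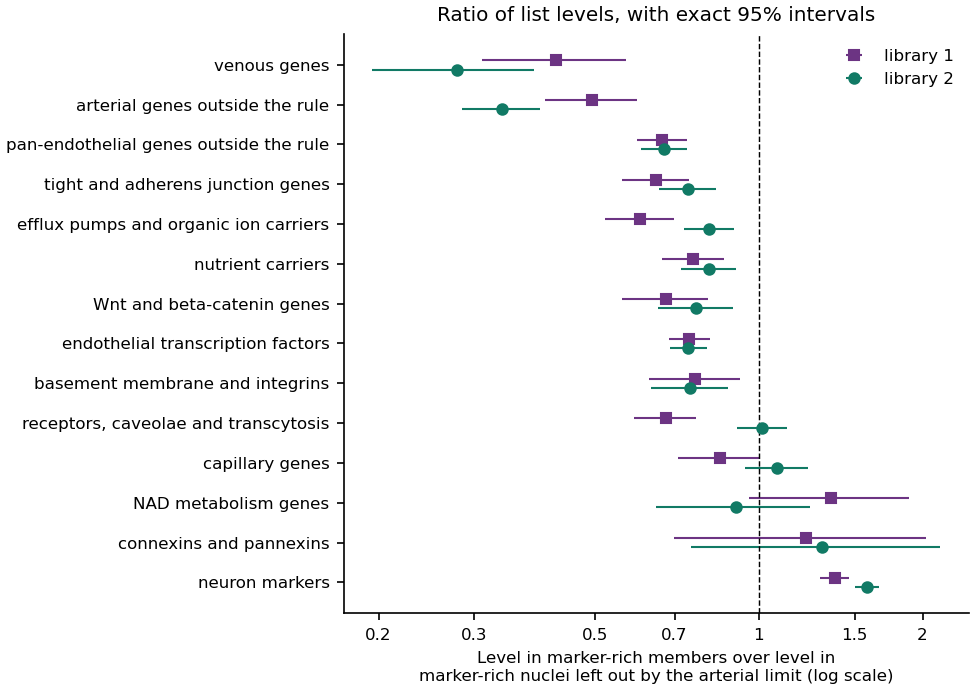
Ratio of the summed level of each list in marker-rich members to that in marker-rich nuclei left out by the arterial limit (x, log scale), per library, with exact 95% intervals; the dashed line marks equal levels. The venous ratios of 0.42 and 0.28 lie to the left of the pan-endothelial ratios of 0.66 and 0.67, and the neuron marker ratios of 1.38 and 1.58 lie to the right of the line.

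Junction genes and transporters were lower in marker-rich members than in nuclei left out. Receptor, caveolae and transcytosis genes were lower in library 1 and, against all nuclei left out, not in library 2. The ratio was 0.65 in library 1 (0.56 to 0.75) and 0.74 in library 2 (0.66 to 0.83) for junction genes, 0.60 in library 1 (0.52 to 0.70) and 0.81 in library 2 (0.73 to 0.90) for efflux pumps and organic ion carriers and 0.76 in library 1 (0.66 to 0.86) and 0.81 in library 2 (0.72 to 0.91) for nutrient carriers. For receptor, caveolae and transcytosis genes it was 0.67 in library 1 (0.59 to 0.77) and 1.01 in library 2 (0.91 to 1.13), the last with its interval apart from the pan-endothelial ratio of that library. Against left-out nuclei without a UMI of Bmx, Eln or Gja5, this list was lower in both libraries. Its ratio there was 0.60 in library 1 (0.53 to 0.69) and 0.75 in library 2 (0.67 to 0.84). The last interval overlaps that of the pan-endothelial ratio against the same nuclei, 0.63 (0.57 to 0.70). Efflux pumps and organic ion carriers were at 0.54 and 0.60 against these nuclei, and nutrient carriers at 0.73 and 0.62. Against all nuclei left out, neuron markers were higher in members, at 1.38 in library 1 (1.30 to 1.47) and 1.58 in library 2 (1.499 to 1.66). The pan-endothelial ratio against the same nuclei was 0.66 and 0.67. What part the neuron level had in the lower endothelial sums was not tested. With 2-fold and intervals apart as the limit, 18 of 537 genes compared (3.35%) were lower in members than in nuclei left out in library 1 and 35 of 701 (4.99%) in library 2, and 27 (5.03%) and 22 (3.14%) were higher. Plekhg1, an activator of small GTPases, stood at 196 and 224 CPM against 437 and 481 CPM, Prex2, an activator of Rac, at 286 and 386 CPM against 585 and 1056 CPM, and Pkp4, a plakophilin of cell junctions, at 286 and 249 CPM against 666 and 509 CPM. Higher in members were Khdrbs2, at 466 and 361 CPM against 199.7 and 151 CPM, and Brinp1, at 677 and 598 CPM against 292 and 287 CPM. Both are neuronal genes, which other nuclei held at 607 and 595 CPM and at 834 and 842 CPM.

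Pericyte and smooth muscle markers in both libraries were higher in the marker-rich members than in the bulk of the nuclei. In library 1 fibroblast, ependymal and astrocyte markers were higher as well. The pericyte and smooth muscle list summed to 827 and 709.8 CPM, beside 93.3 and 138 CPM in nuclei with at most 1 endothelial marker, and was 6.62 in library 1 (4.98 to 8.62) and 3.76 in library 2 (2.85 to 4.88) times the level in other nuclei. Of these 15 pericyte and smooth muscle markers 6 and 7 were at 0, Kcnj8, Higd1b, Carmn and Abcc9 in both libraries, and their sum took 0.083% and 0.071% of UMIs (0 to 0.70% and 0 to 0.28% per nucleus). Rgs5, a regulator of G protein signalling listed as a pericyte gene, made up most of it, at 647 and 573 CPM in members, 1294 and 509 CPM in endothelial nuclei left out and 322 and 405 CPM in pericyte and smooth muscle nuclei. Vtn, a pericyte gene, held 4 and 3 UMIs, and Myh11, of smooth muscle, 1 in each library. Of 12 microglial and macrophage markers 8 were at 0 in each library, and no member held 4 or more. Marker-rich members with 4 or more markers numbered 1 and 0 for pericytes and smooth muscle and 2 and 0 for fibroblasts. For astrocytes they numbered 1 and 1, for oligodendrocytes 1 and 0, and for neurons 26 and 36. Fibroblast markers were at 617 CPM in library 1 (443 to 837) and 112 CPM in library 2 (51.2 to 213), beside 126 and 163 CPM in nuclei with at most 1 endothelial marker, with 3 of 13 at 0 in library 1 and 7 in library 2. Without the 2 nuclei of library 1 that held 4 or more of these markers, the list stood at 85.3 CPM there (27.7 to 199). Astrocyte markers summed to 918 and 448 CPM, oligodendrocyte markers to 933 and 1021 CPM and microglial markers to 105 and 137 CPM, beside 589.8 and 645 CPM, 786 and 956 CPM and 93.6 and 144 CPM in nuclei with at most 1 endothelial marker. Ependymal markers, 5 of 7 at 0 in each library, summed to 858 and 112 CPM against 113 and 102 CPM in other nuclei. Without the 2 fibroblast-marked nuclei of library 1 the ependymal sum there was 273 CPM (156 to 443). The part of RNA from other cells in the members was not tested.

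The libraries were set side by side over the marker-rich members, with no age and no test. Of 524 genes with enough counts, 14 (2.67%) were 2-fold or more higher in library 1 with intervals apart and 22 (4.2%) in library 2. In the endothelial nuclei left out it was 107 of 3657 genes (2.93%) and 86 (2.35%). Over all 119 members it was 107 (6.17%) and 64 (3.69%) of 1734 genes, a comparison in which the marker-poor members hold most UMIs and hold more of them in library 2. Most calls of the marker-rich members did not recur at 2-fold in the nuclei left out. Of the 14 genes higher in library 1, 7 were higher there too and 2 reached 2-fold, with a median ratio of 1.03. Of the 22 higher in library 2, 18 were higher there too and 1 reached 2-fold, with a median ratio of 1.20. Among endothelial genes, Hmcn1, a protein of the matrix, stood at 105 CPM in library 1 (7 UMIs, 42.3 to 217) and 847 CPM in library 2 (68 UMIs, 658 to 1073), and was detected in 6 of 26 and 24 of 36 nuclei. The endothelial nuclei left out held 379 and 900.5 CPM of Hmcn1 and were also lower in library 1. Slco1a4 stood at 0.42 of its library 2 level in the members of library 1, and at 0.65 in nuclei left out. Slco1c1, at 0.48 in members, was at 0.94 in nuclei left out. Abhd2, a lipase, stood at 150.5 and 498 CPM, and Maml2, a co-activator of Notch, at 211 and 548 CPM; in nuclei left out they were at 388 and 422 CPM and at 466 and 819.8 CPM. Abcc4 was 2.69-fold higher in the members of library 1, and Tbc1d4 2.03-fold, beside 1.41-fold and 2.35-fold in nuclei left out.

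The largest differences towards library 1 rested on few nuclei. Trpm3, a cation channel, stood at 1655 CPM in library 1 (110 UMIs, 1360.2 to 1995) and 174 CPM in library 2 (14 UMIs, 95.3 to 293), and Ttr, the thyroxine carrier transthyretin made by the choroid plexus, at 782 CPM in library 1 (52 UMIs, 584 to 1026) and 87.2 CPM in library 2 (7 UMIs, 35.05 to 179.6). In nuclei left out Trpm3 was lower in library 1, at 223 and 462 CPM. Library 1 held 3 members with 4 or more of 13 fibroblast markers, of which 2 were marker-rich, and library 2 held 0. One of these 2 nuclei carried 70 of the 110 Trpm3 UMIs, and the other carried 37 of the 52 Ttr UMIs and 23 of Trpm3. Without these 2 nuclei, which leaves 24, the levels of library 1 were 187.6 CPM for Ttr (93.7 to 336) and 289.9 CPM for Trpm3 (169 to 464), and the fibroblast list stood at 85.3 CPM in place of 617. Leaving out these nuclei was chosen after their values had been seen.

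**Figure D5:**
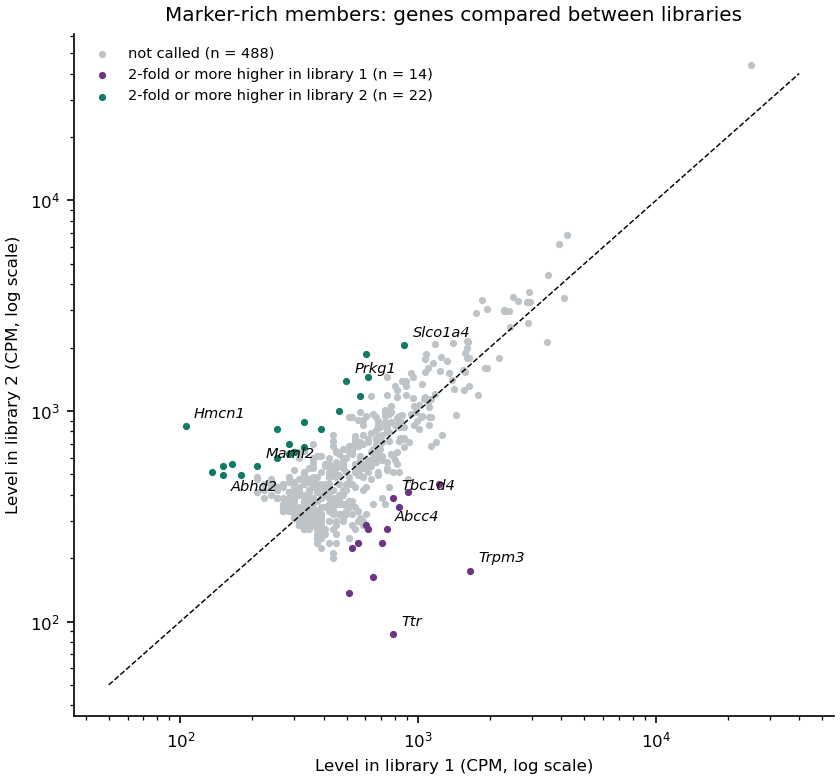
Level of each of 524 genes in marker-rich members of library 1 (x) and library 2 (y), in CPM on log scales, with the dashed line at equal levels; coloured points are 2-fold or more apart with intervals apart. Hmcn1 and Slco1a4 stand above the line and Trpm3 and Ttr below it, and without 2 nuclei of library 1 the last 2 genes stood at 289.9 and 187.6 CPM there.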

How the data were processed

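Single-nucleus RNA was measured in 2 pools of 3 mice each. The authors deposited 1 matrix of whole-number UMI counts for both pools, not normalized, per the file headers. The header names Cell Ranger 3.1.0 and the build mm10, whereas the submitters' processing notes name Cell Ranger 2.0.1, Seurat 3.1 and R 4.0.2. The gene annotation and whether intronic reads were counted were not given in the sources used here; both affect levels in nuclei. With no age given for either barcode suffix, both were described side by side.

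Members were found by the rule in the opening, and the members and gene lists were chosen with earlier results of these data known. UMIs were summed per group of nuclei and library and divided by their total to give CPM, with exact 95% Poisson intervals; shares have exact Clopper-Pearson intervals. A gene was compared with other nuclei where at least 10 UMIs were expected, and between libraries, or with nuclei left out, at 20. Comparison nuclei (pericytes and smooth muscle, fibroblasts, astrocytes, microglia) held 4 or more listed markers of their type and at most 2 rule markers. A total of 31 lists held 438 gene symbols. Genes were named by a rule: the rule genes, Gja1 and Cdh5, the 5 most abundant members of each list, the 25 leading genes outside the lists, and up to 15 per direction between libraries or against nuclei left out, from which those described were taken. Work was done in Python 3.11.15 with numpy 2.4.6, scipy 1.17.1 and pandas 2.3.3. The calls against other nuclei and the Poisson intervals were tried on simulated Poisson counts, which hold no spread between nuclei. The calls between libraries and against nuclei left out were not simulated. Doublets were not removed by a caller. With 1 sample per age no test was made, and PCR and droplet effects lie outside the intervals. Some named genes are not reported here.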

Additional observations from a re-analysis of the deposited data

How the results depend on the processing

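Counts below are for library 1 and then library 2. By the rule, 39 and 80 nuclei were members, 76 and 14 genes were 4-fold higher and 9 and 15 lower than in other nuclei, 27 and 10 listed genes were higher, and between the libraries 107 and 64 genes were 2-fold higher in library 1 and in library 2. With at least 4 markers there were 34 members in library 2, 47 genes higher in library 2, 14 and 6 lower, 23 listed in library 2, and 29 and 31 between libraries. With no other-lineage gene it was 14 and 22 members, 30 and 24 higher, 15 and 4 lower, 8 listed in library 1, and 17 higher in library 1 than in library 2. With no arterial UMI it was 52 members in library 2, 36 and 0 higher, 9 lower in library 2, 16 and 0 listed, and 70 between libraries. A mitochondrial limit of 1% left 8 and 32 members, 6 and 0 higher, 5 lower in library 1, 1 and 0 listed, and 28 between libraries. A marker share of at least 0.2% left 26 and 36 members, 86 higher in library 2, 22 lower in library 1, 29 listed in library 2, and 14 and 22 between libraries. Equal weight per nucleus gave 166 and 120 higher, 15 and 25 lower, and 58 and 45 listed. Thinning to 1000 UMIs gave 26 higher in library 1, 2 and 1 lower, 11 listed in library 1, and 3 and 13 between libraries. A doubled count filter gave 28 higher in library 1, 1 and 2 lower, 11 listed in library 1, and 33 and 41 between libraries. No filter gave 1099 and 598 higher, 104 and 126 lower, 134 and 27 listed, and 390 and 139 between libraries. Against nuclei with at most 1 marker, 32 genes and 21 listed genes were higher in library 2.

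The following alternatives were chosen after the data were seen. With Mecom out of the arterial limit there were 129 and 225 members, 462 and 385 genes higher, 122 and 112 listed, and 270 higher in library 1 than in library 2. With the 0.2% share as well it was 114 and 175 members, 525 and 591 higher, 72 and 111 lower, and 127 and 135 listed. Leaving out 3 fibroblast-marked nuclei left each of these counts within 1.5 times. In each case the cause was not tested, beyond the fewer or more nuclei and genes that the alternative itself brings. Of 130 such counts, 79 moved by over 1.5 times. The 130 include a limit of at least 1000 UMIs, which could move no count because the shallowest member held 1068.

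No paired analysis was possible because each age has 1 pooled sample and the libraries carry no age. The marker-rich members held 66467 and 80306 UMIs, and genes below a few UMIs could not be compared.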

Other observations

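The summed lists of antigen presentation and of the immediate response stood higher in library 1 than in library 2 in the marker-rich members and in the endothelial nuclei left out. The MHC class I and interferon list summed to 1098 CPM in library 1 (861 to 1381) and 598 CPM in library 2 (441 to 792) in members and 1415 and 784 CPM in nuclei left out, with intervals apart in each group, beside 98.5 and 82.9 CPM in nuclei with at most 1 marker. H2-K1 and H2-D1, whose reads near-identical copies can share, stood at 135 and 62.3 CPM and 165 and 137 CPM, and B2m, their common partner, at 196 and 74.7 CPM. The immediate early list summed to 1489 CPM in library 1 (1211 to 1813) and 934 CPM in library 2 (735 to 1171) in members and 1759.6 and 988 CPM in nuclei left out. It is led by Klf2, which the members held at 587 and 299 CPM and other nuclei at 12.7 and 16.6 CPM. Klf2 thus made up a large part of the immediate early sum in members. The list without Klf2 was not compared, so a difference beyond this gene is not shown. Cdkn1a, a cell cycle inhibitor named after its values were seen, held 12 UMIs in 9 of 26 members of library 1 (181 CPM) and 0 in library 2. With the 0 of library 2 set to 3 counts, its level was 4.83-fold higher in library 1, a value that is not a lower bound. In nuclei left out Cdkn1a was at 133 and 28.8 CPM. Without the 2 fibroblast-marked nuclei of library 1 the sums there were 1074 CPM (826 to 1375) for the MHC list and 1501 CPM (1204 to 1849) for the immediate early list, still apart from the intervals of library 2. No library is tied to an age, so these values describe 2 libraries.

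The senescence and stress list differed less, at 1535 CPM in library 1 (1251 to 1863) and 1183 CPM in library 2 (957 to 1446) in members, where the intervals overlap. Igfbp7, a secreted protein of vessels, stood at 301 and 374 CPM and Zbtb16 at 527 and 324 CPM in members. Endothelial activation genes stood at 1519.5 CPM in library 1 (1238 to 1846) and 996 CPM in library 2 (789.9 to 1239.8), with Cx3cl1, the chemokine fractalkine, at 256 and 149 CPM against 155 and 76.9 CPM in other nuclei.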
